A study of Mus musculus with 12 samples.

Results

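The members described here are 10 genes of the calcineurin and NFAT pathway, chosen by name: the transcription factors Nfatc1, Nfatc2, Nfatc3, Nfatc4 and Nfat5, the calcineurin subunits Ppp3ca, Ppp3cb, Ppp3cc and Ppp3r1, and the calcineurin inhibitor Rcan1. They are 10 of the 42450 gene rows of the table, and all 10 passed the filter on low counts. Their level was measured by polyA+ RNA-seq in mouse embryonic stem (ES) cells of the male E14tg2a.4 line, grown with LIF in serum-free medium. Cells received 50 nM siRNA against Srrm2, which encodes a splicing-related protein of nuclear speckles (Srrm2-KD), or against firefly luciferase Gl2, which has no target in these cells (Gl2-KD). RNA was taken 24 h after transfection, or at 72 h from cells that were transfected again 24 h after the first time. Each of the 4 groups holds 3 libraries, 1 from each of 3 experiments, and all 12 come from the same unmodified line. The comparisons ask whether the level of each member changed after Srrm2 knockdown at each time, whether that change differed between the times, and whether the level moved between 24 h and 72 h within each siRNA.

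Calcineurin is the calcium- and calmodulin-dependent phosphatase of the cytoplasm, built of a catalytic A subunit and a regulatory B subunit. When cytoplasmic calcium rises it removes phosphates from NFATc proteins, which then enter the nucleus and bind DNA together with AP-1 factors, while kinases and nuclear export return them to the cytoplasm. Rcan1 binds and inhibits calcineurin, and one of its isoforms is itself a well known NFAT target. Nfat5 shares the DNA-binding domain but is controlled by osmotic stress and not by calcineurin. In ES cells the pathway is known for its part in the exit from self-renewal.

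The NFAT core motif, GGAAA, was looked for on both strands in the 250 bases before each RefSeq transcription start (GRCm38.p6), and RefSeq windows were matched for 7 of the 10 members. The windows of Nfatc4 and Rcan1 are shown because these are the members whose level was lower in Srrm2-KD at 72 h by the unadjusted test described further on. Each is written 5′ to 3′ on the gene's strand, and capitals mark GGAAA or its reverse complement TTTCC.
Nfatc4, chr14:55824545-55824794, plus strand: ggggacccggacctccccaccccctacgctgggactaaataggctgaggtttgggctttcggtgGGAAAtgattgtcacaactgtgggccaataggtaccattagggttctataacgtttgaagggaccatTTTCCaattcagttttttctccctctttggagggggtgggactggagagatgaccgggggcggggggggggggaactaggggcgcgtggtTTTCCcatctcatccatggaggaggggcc
Rcan1, upstream start, chr16:92466170-92466419, minus strand: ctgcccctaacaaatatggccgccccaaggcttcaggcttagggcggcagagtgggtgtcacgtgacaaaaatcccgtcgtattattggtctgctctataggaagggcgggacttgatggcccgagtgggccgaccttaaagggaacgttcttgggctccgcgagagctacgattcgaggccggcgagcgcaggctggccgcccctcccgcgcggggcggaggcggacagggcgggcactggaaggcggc
Rcan1, internal start, chr16:92400079-92400328, minus strand: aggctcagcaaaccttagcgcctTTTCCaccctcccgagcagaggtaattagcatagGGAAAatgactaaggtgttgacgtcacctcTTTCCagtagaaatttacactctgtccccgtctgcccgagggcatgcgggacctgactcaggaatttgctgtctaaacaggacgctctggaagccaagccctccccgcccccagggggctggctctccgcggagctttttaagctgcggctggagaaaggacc

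The Nfatc4 window held 3 matches, the window at the internal Rcan1 start held 3 and the one at its upstream start held 0. Of all 32851 RefSeq windows of this length, 55.6% held at least 1 match and 6.39% held at least 3. The Ppp3cb window also held 3, those of Nfatc2 held 3 and 1, those of Nfatc3 held 1 and 0, that of Nfat5 held 2 and that of Ppp3r1 held 0. The Nfatc4 window lies inside the annotated gene, which begins upstream at chr14:55823144, and overlaps no annotated exon. A match is a string of letters and was not tested as a binding site. The deposited values are per gene, so both Rcan1 starts are pooled in every value given here.

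Library totals ran from 73933196 to 153343831 estimated counts, and 19410 genes passed the filter. Experiment 1 stood apart from experiments 2 and 3 on the main axis of variation (42.0% of the variance), and so the tests keep the experiment as a block, except where an alternative without it is named. As for the targeted gene, every experiment had less Srrm2 after its siRNA: 43.0% of the Gl2-KD level remained at 24 h and 44.6% at 72 h, with edgeR adjusted p = 0.0663 and 0.0991, and over both times the edgeR adjusted p was 0.00254. The Srrm2 call over both times was lost without experiment 2 (edgeR adjusted p = 0.0899), without experiment 3 (0.102) and without the block (1.00). The Srrm2-KD libraries of experiment 1 still held 517 and 461 CPM (counts scaled to library depth) of Srrm2, as much as the 442 to 496 CPM seen with Gl2 siRNA in the other experiments. All 6 pluripotency markers on the list, Pou5f1 among them, were present in every library, with a summed level of 3694 to 4473 CPM. The mesoderm, endoderm and fibroblast marker lists summed to at most 7.38, 3.58 and 24.6 CPM, the last mostly from Thy1, and the blood and T cell list, 31.6 to 85.8 CPM, was mostly Lck, with Ptprc at no more than 0.286 CPM. The neural list summed to 76.1 to 168 CPM, with means of 59.5 for Tubb3, 29.4 for Nes and 20.4 for Pax6.

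The B subunit and a catalytic subunit of calcineurin had the highest levels. Per kilobase of the longest coding transcript, Ppp3r1, the regulatory B subunit, had the highest mean over the 12 libraries, 28.3 CPM per kb (21.2 to 33.9). Ppp3cb, the beta catalytic subunit, followed with 16.4 (10.9 to 20.5), and its range did not touch that of Ppp3r1. Nfatc3 at 12 CPM per kb (9.42 to 16.1) was the highest of the NFAT factors.

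Rcan1 at 11.7 CPM per kb (6.77 to 15.3), Nfatc4 at 6.39 (3.39 to 12), Ppp3ca, the alpha catalytic subunit, at 5.26 (3.90 to 7.32) and Nfat5 at 3.88 (1.80 to 8.48) formed a middle group. Every neighbouring pair from Ppp3cb down to Nfat5 overlapped in range, so this order is not separated by the spread between libraries. A gap followed, to Ppp3cc, the gamma catalytic subunit, at 0.585 CPM per kb (0.228 to 1.07), and Nfatc2 at 0.361 (0.206 to 0.544), whose ranges overlapped with each other. Nfatc1 was lowest at 0.0394 CPM per kb (0 to 0.0834), below the range of Nfatc2. With the union of all exons as the length, Rcan1 moved from rank 4 to rank 2 and Nfat5 and Ppp3ca changed places at ranks 6 and 7.

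**Figure D1:**
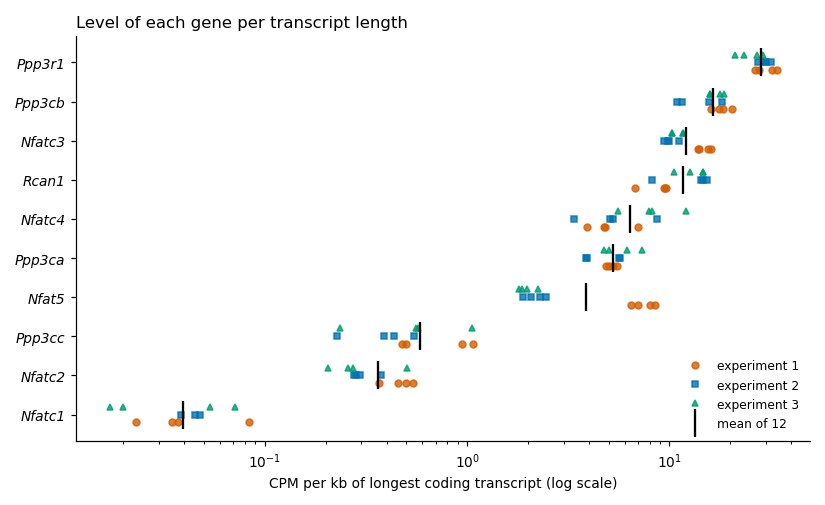
Level of each member in CPM per kb of its longest coding transcript (log axis), 1 point per library, 12 libraries per gene, ordered by mean. Ppp3r1 stands above all others at 28.3 on average, Ppp3cc, Nfatc2 and Nfatc1 lie below a gap under Nfat5, and the 1 Nfatc1 library at 0 is not drawn.

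Nfatc4, an NFATc factor at chr14:55823144-55833943 on the plus strand (GRCm38), had the lowest unadjusted p of the members at both times. All values here and below are CPM scaled by TMM library factors, in the order of experiments 1, 2 and 3. At 24 h Nfatc4 stood at 18.2, 19.9 and 30.0 CPM in Gl2-KD and at 18, 12.8 and 21.1 CPM in Srrm2-KD. At 72 h it stood at 26.5, 32.9 and 45.3 CPM in Gl2-KD and at 14.7, 19.2 and 30.8 CPM in Srrm2-KD. Within each experiment and time the Srrm2-KD library was the lower one, although at 24 h in experiment 1 the pair was nearly equal. The groups overlapped at both times, and experiment 3 was high in both siRNAs.

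The mean of Nfatc4 was 34.9 ± 9.53 CPM in Gl2-KD at 72 h and 21.6 ± 8.32 CPM in Srrm2-KD (SD over 3 experiments). The log2 fold change was −0.72 ± 0.16 (SE) at 72 h, equal to 60.6% of the Gl2-KD level, with an unadjusted p of 8.61e-04 and an edgeR adjusted p = 0.144, so it did not pass the threshold of 0.05. At 24 h it was −0.37 ± 0.16 with an unadjusted p of 0.0432 and an edgeR adjusted p = 1.00. Averaged over both times it was −0.54 ± 0.11 with the lower value in 6 of 6 pairs, which Rcan1 and 7.26% of all genes also had, and an edgeR adjusted p = 0.0898. The change at 72 h minus that at 24 h was −0.36 ± 0.23, with an edgeR adjusted p = 1.00, so the times were not shown to differ.

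Whether Nfatc4 passed the threshold depended on the tool and the libraries used. At 72 h it passed in 4 of 26 alternatives: DESeq2 (log2 −0.71, adjusted p = 0.00313, 2.79% of all genes), a block for each experiment and time (−0.73, edgeR adjusted p = 0.0244, in a fit that called 3.73% of all genes), the 72 h libraries alone (−0.73, edgeR adjusted p = 0.0229, 1.78% of all genes) and without the experiment 1 Srrm2-KD library at 24 h (−0.74, edgeR adjusted p = 0.0219, 0.211% of all genes). Its log2 fold change at 72 h kept its sign in all of them and ran from −0.83 to −0.60 when libraries or experiments were left out. Over both times together it passed in 5 of 25 alternatives, among them DESeq2 (adjusted p = 7.71e-04, 3.78% of all genes), no filter on low counts (edgeR adjusted p = 0.0375, 0.422% of all genes) and the block for each experiment and time (−0.56 ± 0.08, edgeR adjusted p = 0.0124, 5.79% of all genes called). Without the experiment 1 Srrm2-KD library at 24 h it was −0.68 ± 0.08, with an edgeR adjusted p = 0.00454, in a fit that called 1.45% of all genes. Without experiment 1 it was −0.62 ± 0.08 with an edgeR adjusted p = 0.0291, in a fit that called 0.585% of all genes. Without experiment 1 the 24 h value was −0.57 ± 0.12, larger than with all libraries, at an edgeR adjusted p = 0.432. In bulk RNA, fewer cells that express a gene and less of its RNA per cell cannot be told apart. The paper also reports exon skipping in Nfatc4 after Srrm2 knockdown, with a shift between its protein-coding isoforms. Gene values pool these isoforms, so the part of that event in the lower value was not tested. By the paper's own expression test, no gene it lists as differentially spliced after knockdown, Nfatc4 included, changed in level at either time. The summed level of the trophoblast marker list moved with Nfatc4 at 72 h, at 84.9 to 95.4 CPM in Gl2-KD and 46.2 to 72.1 CPM in Srrm2-KD. Nearly all of that was Tfap2c, at 88.4 ± 5.70 and 62.1 ± 14.3 CPM, while Cdx2, Elf5 and Gata3 never exceeded 0.662 CPM. Of the 4 genes on the list, 2 were higher and 2 lower in Srrm2-KD at 72 h, with a median log2 of 0.09. The part of this list in the result was not tested.

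**Figure D2:**
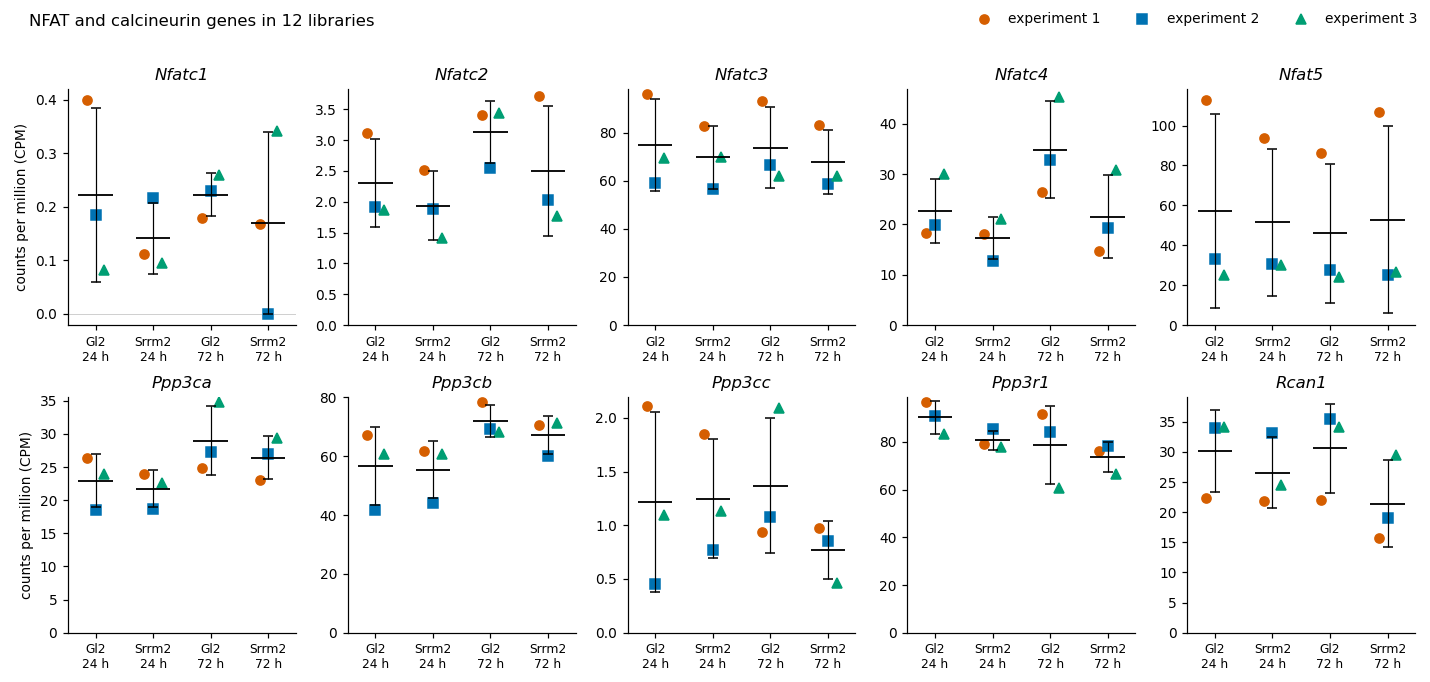
Level in CPM (vertical axes from 0) of the 10 members in the 4 groups, with 1 point per experiment, the mean as a line and the SD as bars. The Nfatc4 mean at 72 h is 34.9 in Gl2-KD and 21.6 in Srrm2-KD with overlapping points, and Nfat5 shows experiment 1 apart in all 4 groups.

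Nfatc3, the NFAT factor with the highest level, differed little between siRNAs. It stood at 96.1, 59.2 and 69.5 CPM in Gl2-KD and at 82.9, 56.4 and 69.9 CPM in Srrm2-KD at 24 h. The 72 h libraries held 93.1, 66.4 and 61.8 CPM in Gl2-KD and 83.3, 58.7 and 61.8 CPM in Srrm2-KD. Experiment 1 was highest in every group, and within experiments the siRNAs lay close together. Its log2 fold change was −0.09 ± 0.10 at 24 h and −0.12 ± 0.10 at 72 h, within the spread between experiments, with edgeR adjusted p = 1.00 and 0.657. Its exons share 219 bp, 1.87% of their length, with Esrp2 on the other strand. That neighbour had a log2 fold change of 0.04 ± 0.18 at 24 h. The 72 h value of Esrp2 was −0.40 ± 0.19, with an edgeR adjusted p = 0.397.

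Nfatc2 and Nfatc1, the factors best known from T cells, were low. Nfatc2 stood at 3.12, 1.92 and 1.86 CPM in Gl2-KD and at 2.52, 1.88 and 1.41 CPM in Srrm2-KD at 24 h. Later, at 72 h, the values were 3.40, 2.55 and 3.43 CPM in Gl2-KD and 3.71, 2.02 and 1.77 CPM in Srrm2-KD. Srrm2-KD was the lower member of the pair in every experiment at 24 h, and at 72 h in all but experiment 1. The log2 fold changes of −0.24 ± 0.23 and −0.40 ± 0.23 had edgeR adjusted p = 1.00 and 0.511.

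Nfatc1 was between 0.0821 and 0.400 CPM in the 6 Gl2-KD libraries and between 0 and 0.341 CPM in the 6 Srrm2-KD libraries. It had no count in the experiment 2 Srrm2-KD library at 72 h, where a count of 0 allows up to 0.0396 CPM (3 counts, counting error only). At this depth no difference was detectable: the log2 fold change was −0.57 ± 0.93 at 24 h and −0.48 ± 0.93 at 72 h, with edgeR adjusted p = 1.00 and 0.864.

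Nfat5, the osmotic stress factor, varied more between experiments than between siRNAs. In Gl2-KD it stood at 113, 33 and 25.0 CPM at 24 h and at 86.3, 27.6 and 24.1 CPM at 72 h. In Srrm2-KD it stood at 93.8, 30.6 and 30.0 CPM at 24 h and at 107, 25.2 and 26.5 CPM at 72 h. All 4 libraries of experiment 1 were above all 8 others, and the siRNAs overlapped within experiments 1 and 2, while in experiment 3 both Srrm2-KD libraries were slightly higher. The mean of experiment 1 was 3.61 times that of the other experiments, a ratio reached by 3.64% of the genes tested, and 16.7% of genes had all 4 libraries of experiment 1 on top. The log2 fold change after Srrm2 knockdown was −0.04 ± 0.12 at 24 h and 0.11 ± 0.12 at 72 h, with edgeR adjusted p = 1.00 and 0.740. Without experiment 1 these were 0.07 ± 0.14 and 0.00 ± 0.14.

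Among the catalytic subunits, Ppp3cb and Ppp3ca differed little between siRNAs. Ppp3cb stood at 67.1, 41.8 and 60.9 CPM in Gl2-KD and at 61.6, 44.2 and 60.6 CPM in Srrm2-KD at 24 h. In the 72 h libraries it was at 78.4, 69.3 and 68.3 CPM in Gl2-KD and 70.5, 59.9 and 71.4 CPM in Srrm2-KD. The siRNA groups overlapped at both times, and within each experiment and siRNA the 72 h library was the higher one. Its log2 fold change after Srrm2 knockdown was −0.02 ± 0.12 at 24 h and −0.11 ± 0.12 at 72 h, with edgeR adjusted p = 1.00 and 0.741.

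Ppp3ca stood at 26.3, 18.5 and 24.0 CPM in Gl2-KD and at 24.0, 18.6 and 22.6 CPM in Srrm2-KD at 24 h. At 72 h it stood at 24.9, 27.2 and 34.8 CPM in Gl2-KD and at 23, 26.9 and 29.4 CPM in Srrm2-KD. At 72 h each Srrm2-KD library lay slightly under its Gl2-KD partner, with overlapping groups. Its log2 fold change was −0.07 ± 0.15 at 24 h and −0.12 ± 0.15 at 72 h, with edgeR adjusted p = 1.00 and 0.763.

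Ppp3cc, known from the testis, stood at 2.11, 0.449 and 1.10 CPM in Gl2-KD and at 1.85, 0.765 and 1.13 CPM in Srrm2-KD at 24 h. The 72 h libraries held 0.938, 1.08 and 2.09 CPM in Gl2-KD and 0.978, 0.858 and 0.464 CPM in Srrm2-KD. The 72 h difference sat mostly in experiment 3, while experiment 1 was level. The log2 fold change was −0.85 ± 0.49 at 72 h, with an edgeR adjusted p = 0.501, and 0.12 ± 0.47 at 24 h. The 72 h value ran from −1.40 without the experiment 2 Srrm2-KD library at 72 h to −0.21 without experiment 3. The gene shares 91 bp of exon with Gm49417 on the other strand.

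Ppp3r1, the B subunit among the members, stood at 96.9, 90.8 and 83.3 CPM in Gl2-KD and at 79.3, 85.3 and 77.8 CPM in Srrm2-KD at 24 h. Later, at 72 h, the values were 91.8, 84.1 and 60.5 CPM in Gl2-KD and 76.0, 78.3 and 66.7 CPM in Srrm2-KD. Srrm2-KD was the lower of each pair, apart from experiment 3 at 72 h. Its log2 fold change was −0.16 ± 0.11 at 24 h and −0.08 ± 0.11 at 72 h, with edgeR adjusted p = 1.00 and 0.778. It shares 462 bp, 14.3% of its exons, with Wdr92 on the same strand, and that neighbour had a log2 fold change of 0.11 ± 0.11 at 72 h.

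Rcan1, the inhibitor, at chr16:92391953-92470867 on the minus strand, was the other member with an unadjusted p under 0.05 at 72 h. It stood at 22.3, 34.0 and 34.2 CPM in Gl2-KD and at 21.9, 33.2 and 24.6 CPM in Srrm2-KD at 24 h. In the 72 h libraries it was at 22.1, 35.5 and 34.2 CPM in Gl2-KD and 15.7, 19.0 and 29.5 CPM in Srrm2-KD. At 24 h the siRNAs differed visibly in experiment 3 alone, whereas at 72 h the Srrm2-KD library was lower in every experiment, most so in experiment 2. The groups overlapped at both times.

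The mean of Rcan1 at 72 h was 30.6 ± 7.38 CPM in Gl2-KD and 21.4 ± 7.20 CPM in Srrm2-KD (SD over 3 experiments). The log2 fold change at 72 h was −0.52 ± 0.16, equal to 69.9% of the Gl2-KD level, with an unadjusted p of 0.00898 and an edgeR adjusted p = 0.244. At 24 h it was −0.16 ± 0.16 with an edgeR adjusted p = 1.00, and over both times −0.34 ± 0.11 with an edgeR adjusted p = 0.235. Its change at 72 h minus that at 24 h, −0.35 ± 0.23, had an edgeR adjusted p = 1.00. Rcan1 passed the threshold in no alternative. The 72 h value ran from −0.74 without the experiment 3 Srrm2-KD library at 72 h to −0.35 without that of experiment 2.

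**Figure D3:**
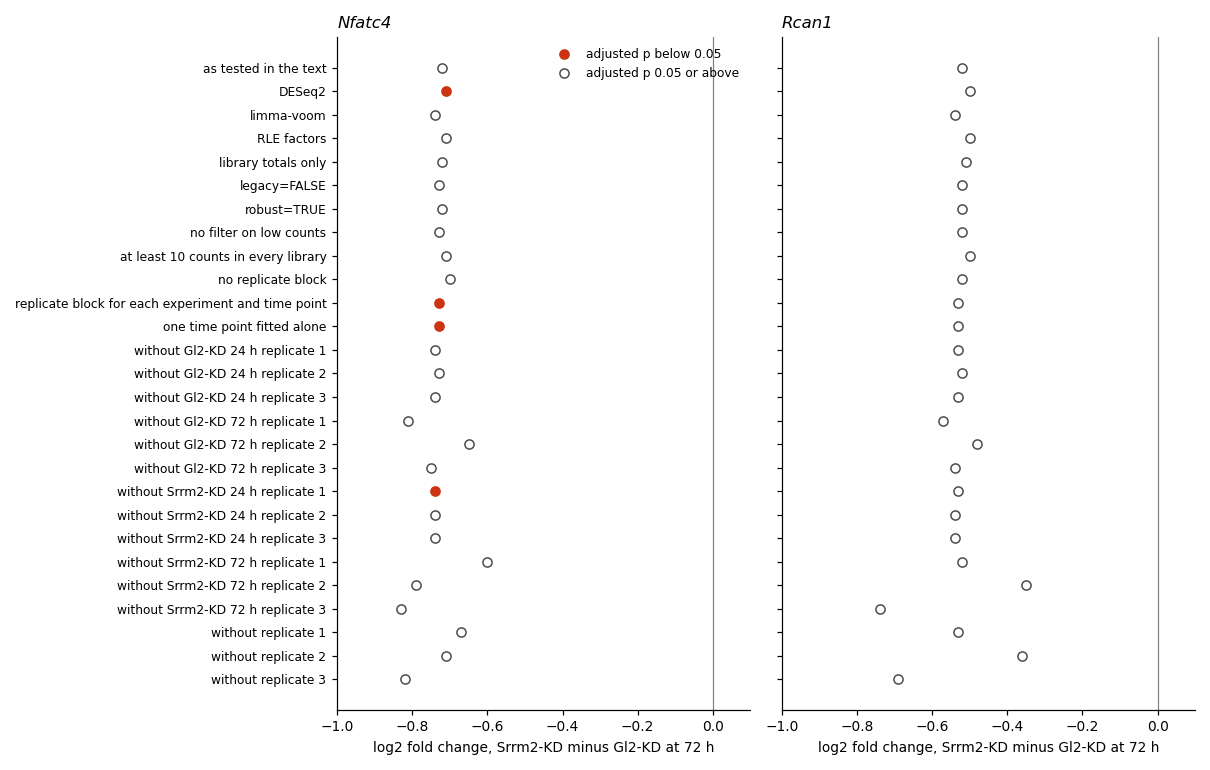
Log2 fold change, Srrm2-KD minus Gl2-KD at 72 h, of Nfatc4 and Rcan1 under the test of the text and each alternative, with filled points where the adjusted p was under 0.05. Nfatc4 lies below 0 throughout and is filled in 4 alternatives, and Rcan1 lies below 0 throughout and is never filled.

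At 24 h, 0 of the 10 members and 0 of all 19410 genes (percent called 0) passed the edgeR threshold. Of the members, 1 had an unadjusted p under 0.05, against 2.62% of all genes, and neither DESeq2 (0.129% of all genes) nor limma-voom (0.0103%) called a member. At 72 h again 0 members and 0 of all genes (percent called 0) passed in edgeR. There, 2 members had an unadjusted p under 0.05, against 12.9% of all genes, DESeq2 called 1 (2.79% of all genes) and limma-voom called 0 (0.0206% of all genes). Over both times 0 members passed in edgeR (0.0670% of all genes), 2 had an unadjusted p under 0.05 (13.6% of all genes), DESeq2 called 1 (3.78%) and limma-voom 0 (0.474%). No member passed in the difference between the times, nor did any gene (percent called 0), in which 0 members and 1.64% of genes had an unadjusted p under 0.05 and neither DESeq2 (0.0103% of genes) nor limma-voom (0%) called a member.

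The fitted change was below 0 for 9 of 10 members at 24 h, against 48.7% of all genes, and for 9 of 10 at 72 h, against 52.1%. The exceptions were Ppp3cc at 24 h and Nfat5 at 72 h. Nfatc2, Nfatc4, Ppp3r1 and Rcan1 were lower in Srrm2-KD in every experiment at 24 h, 4 of 10 against 15.5% of all genes. Nfatc4, Ppp3ca and Rcan1 were so at 72 h, 3 of 10 against 23.1%. For no member did the siRNA groups separate without overlap at either time. Of all genes, 1.55% had all Srrm2-KD libraries below and 1.89% above those of Gl2-KD at 24 h, and 3.67% and 2.99% at 72 h.

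**Figure D4:**
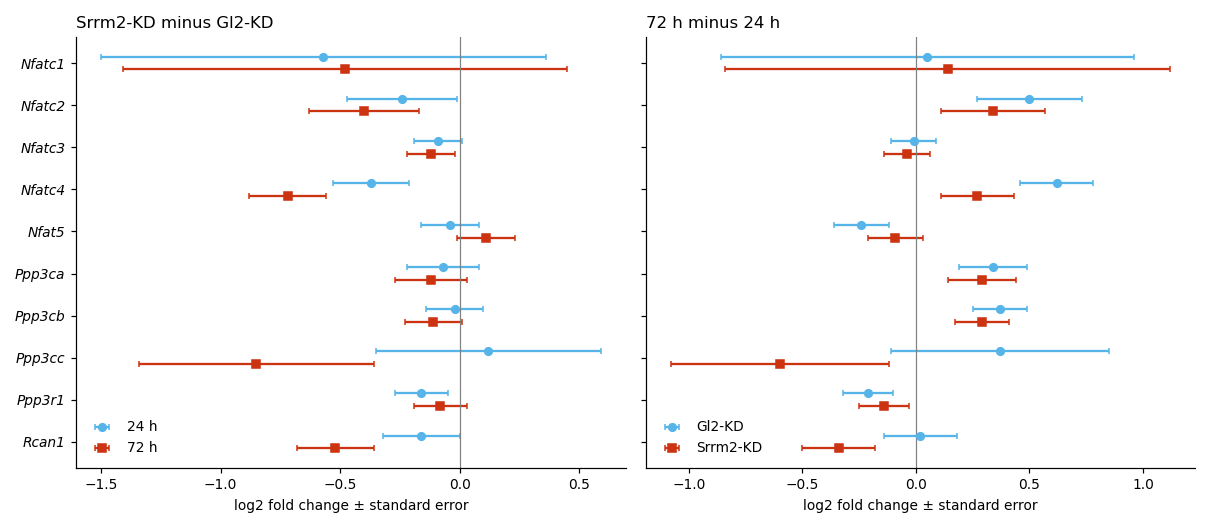
Fitted log2 fold change with SE of each member: on the left Srrm2-KD minus Gl2-KD at 24 h and 72 h, on the right 72 h minus 24 h in Gl2-KD and in Srrm2-KD. On the left most members lie slightly below 0, with Nfatc4 at −0.72 and Rcan1 at −0.52 at 72 h. On the right Nfatc4 lies at 0.62 and Ppp3cb at 0.37 in Gl2-KD.

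The change between 24 h and 72 h was next compared within each siRNA. The Gl2-KD part of this shares its libraries with the knockdown comparisons, so a high 72 h Gl2-KD value enters both. Only the 72 h cells were transfected again, so time in culture and the repeat transfection cannot be told apart in these comparisons. In Gl2-KD, Nfatc4 was higher at 72 h in 3 of 3 experiments, by a log2 of 0.62 ± 0.16 and to 154% of the 24 h level, with an unadjusted p of 0.00240 and an edgeR adjusted p = 0.0797. It passed in 3 of 24 alternatives: DESeq2 (0.60, adjusted p = 0.00867, 6.89% of all genes), without the experiment 1 Srrm2-KD library at 24 h (0.62, edgeR adjusted p = 0.0242, 1.94% of all genes) and without experiment 1 (0.66, edgeR adjusted p = 0.0427, 1.98% of all genes called). In Srrm2-KD the same difference was 0.27 ± 0.16, with experiment 1 lower and experiments 2 and 3 higher at 72 h, and an edgeR adjusted p = 0.453. In Gl2-KD the summed trophoblast list was also higher at 72 h, with 59.7 to 74.3 CPM at 24 h and 84.9 to 95.4 CPM at 72 h. Tfap2c had a log2 of 0.39 there (unadjusted p = 0.00670, edgeR adjusted p = 0.125). Over the 4 genes of the list 2 were higher and 2 lower, with a median log2 of −0.04. The part of this list in the result was not tested.

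Ppp3cb was the only member whose 72 h Gl2-KD libraries all lay above those of 24 h, which 3.91% of genes did. Its log2 change between the times was 0.37 ± 0.12 in Gl2-KD and 0.29 ± 0.12 in Srrm2-KD, with edgeR adjusted p = 0.135 and 0.251. Ppp3cb was higher at 72 h in every experiment under both siRNAs. Ppp3ca had 0.34 ± 0.15 in Gl2-KD, with an unadjusted p of 0.0432 and an edgeR adjusted p = 0.279. Its experiment 1 pair went slightly down, and without experiment 1 the value was 0.54 with an edgeR adjusted p = 0.0609. In Srrm2-KD it was 0.29 ± 0.15.

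Nfatc2 was higher at 72 h in every experiment under both siRNAs, with log2 changes of 0.50 ± 0.23 in Gl2-KD and 0.34 ± 0.23 in Srrm2-KD. Ppp3r1 went the other way in every experiment, with −0.21 ± 0.11 and −0.14 ± 0.11, and Nfat5 did so in Gl2-KD with −0.24 ± 0.12. None of these passed the threshold, and the lowest edgeR adjusted p among them was 0.313. Rcan1 had 0.02 ± 0.16 in Gl2-KD and −0.34 ± 0.16 in Srrm2-KD, where experiment 3 went up and experiments 1 and 2 went down.

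In Gl2-KD, 0 members passed the edgeR threshold between the times, against 1.45% of all genes, while 3 had an unadjusted p under 0.05 (16.8% of all genes), DESeq2 called 1 (6.89%) and limma-voom 0 (2.48%). Higher in every experiment were 3 members, Nfatc2, Nfatc4 and Ppp3cb, against 20.2% of all genes, and lower in every experiment were 2, Nfat5 and Ppp3r1, against 16.4%. In Srrm2-KD, 0 members passed (0.551% of all genes), 1 had an unadjusted p under 0.05 (16.3%), and neither DESeq2 (5.47%) nor limma-voom (1.33%) called a member. Higher at 72 h in every experiment there were Nfatc2 and Ppp3cb, against 16.2% of all genes, and lower was Ppp3r1, against 16.6%.

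The other genes of the pathway were taken from 7 lists of 85 genes, of which 72 were tested. At 24 h none of the 72 passed in edgeR or limma-voom, 3 had an unadjusted p under 0.05 (2.62% of all genes), all lower in Srrm2-KD, and DESeq2 called 1 (0.129% of all genes). The median log2 fold change of the 72 was −0.07, against 0.01 over all genes. Of those 3, Gsk3a, a kinase that rephosphorylates NFATc, had a log2 fold change of −0.30, and Fosl2, of the AP-1 family, had −0.74.

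At 72 h none of the 72 passed in edgeR, DESeq2 or limma-voom, while 4 had an unadjusted p under 0.05 on the higher side and 12 on the lower (12.9% of all genes in either direction). The fitted change was below 0 for 57 of 72, against 52.1% of all genes, with a median of −0.17 against −0.02 over all genes. A block for each experiment and time called 4 of them, Plcg2 as higher and Hspa1b, Jund and Nr4a1 as lower, where 3.73% of all genes passed. The 72 h libraries alone gave 2 calls of 69 tested, Hspa1b and Jund as lower (1.78% of all genes). Over both times none of the 72 passed in edgeR (0.0670% of all genes) or limma-voom (0.474%), and DESeq2 called 4 as lower (3.78%). The block for each experiment and time called 1 as higher and 8 as lower over both times (5.79% of all genes).

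Among calcineurin's other subunits, regulators and calmodulins, 12 of 14 tested genes were on the lower side at 72 h, with a median of −0.18. Rcan3, another inhibitor of the family, had −0.41, and Fkbp8, an immunophilin, had −0.35. Among the NFAT kinases and export genes 10 of 12 were on the lower side, with a median of −0.11. Gsk3a stood at 99.1 ± 10.9 CPM in Gl2-KD and 74.1 ± 10.9 CPM in Srrm2-KD at 72 h, a log2 of −0.42 after −0.30 at 24 h. Among the calcium entry, store and pump genes 14 of 19 were on the lower side, with a median of −0.22. The store release channel Itpr3 had −0.51, the phospholipases Plcb3 and Plcg1 −0.40 and −0.28, and the pump Atp2a2 −0.23, while Plcg2 was on the higher side at 0.38. Among other calcineurin substrates 10 of 11 were on the lower side, with a median of −0.14, and Elk1 had −0.27.

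Of the AP-1 family, the DNA-binding partners of NFATc, 5 of 7 were on the lower side at 72 h, with a median of −0.25. Jund stood at 55.7 ± 22.6 CPM in Gl2-KD and 37.2 ± 12.5 CPM in Srrm2-KD, a log2 of −0.56. Fosb had no count in any Gl2-KD library at 72 h, so no fold is given for it. Of the 10 NFATc target genes of immune cells only 3 were tested. Of the 7 others, Il4 and Cd40lg had no count in any library, and Il2, Tnf, Ifng, Egr3 and Fasl never exceeded 0.0955 CPM. The tested Nr4a1, an immediate early gene, stood at 27.0 ± 1.51 CPM in Gl2-KD and 17.6 ± 3.92 CPM in Srrm2-KD at 72 h, a log2 of −0.62.

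The osmotic target genes of Nfat5 split evenly at 72 h, 3 higher and 3 lower, with a median of −0.06. Akr1b3, the aldose reductase that makes sorbitol, stood at 178 ± 6.36 CPM in Gl2-KD and 249 ± 62.8 CPM in Srrm2-KD, a log2 of 0.43, and the amino acid transporter Slc38a2 had 0.35. On the lower side, the taurine transporter Slc6a6 had −0.32, and the heat shock gene Hspa1b, at 43.2 ± 26.2 and 17.4 ± 7.61 CPM, had −1.23 with an edgeR adjusted p = 0.241. Hspa1b has a near-identical copy, Hspa1a, so its share of the reads is uncertain.

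**Figure D5:**
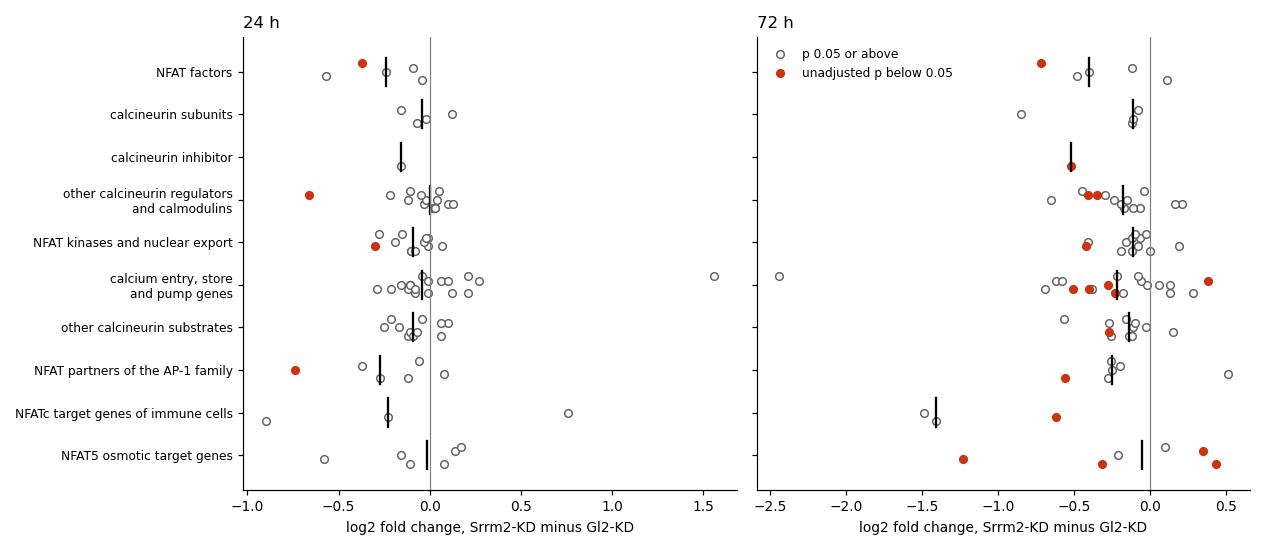
Log2 fold change, Srrm2-KD minus Gl2-KD, of the members (top 3 rows) and of the tested genes of the 7 pathway lists at 24 h and 72 h (axes differ in range), filled where the unadjusted p was under 0.05, with a line at each list's median and Fosb not drawn. At 72 h the medians of the 7 lists lie between −1.41 for the 3 immune target genes and −0.06 for the osmotic genes. The former rests on Egr2 and Ptgs2, which average 0.0937 and 0.0933 CPM with libraries at 0.

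Between the times in Gl2-KD, 1 of the 72 list genes passed in edgeR: Orai3, a subunit of the store-operated calcium channels. It rose from 23.1 ± 5.15 CPM at 24 h to 35.1 ± 10.7 CPM at 72 h, a log2 of 0.59 ± 0.11 with an edgeR adjusted p = 0.0319, and lay between 0.49 and 0.69 when libraries or experiments were left out. The call was lost without the 24 h Gl2-KD library of any 1 of experiments 1, 2 and 3 (edgeR adjusted p = 0.109, 0.207 and 0.104) or the 72 h one of experiment 2 or 3 (0.181 and 0.119). It was also lost without the Srrm2-KD library of experiment 2 at 24 h (edgeR adjusted p = 0.0642), without experiment 2 (0.607) or without experiment 3 (0.153). DESeq2 called 6 of the list genes there (6.89% of all genes) and limma-voom called 4 (2.48%), among them the inositol transporter Slc5a3 and the heat shock relative Hspa4l, both Nfat5 targets, as higher, while DESeq2 called the Nfat5 target Akr1b3 as lower. In edgeR Akr1b3 had a log2 of −0.69 with an adjusted p = 0.104. In edgeR the former pair had a log2 of 0.80 and 0.87 with adjusted p = 0.0599 and 0.0589, beside an Nfat5 level that itself had −0.24. In Srrm2-KD Slc5a3 and Hspa4l had 0.73 and 0.81, and the Nfat5 target Slc6a6, which DESeq2 called as lower there, had −0.43 in edgeR. None of the 72 passed in edgeR in Srrm2-KD, 13 had an unadjusted p under 0.05 (16.3% of all genes), DESeq2 called 5 (5.47%) and limma-voom 1 (1.33%), which is near the share over all genes.

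The genes whose level followed Nfatc4 and Rcan1 most closely were ranked by Pearson's r of log2 CPM over the 12 libraries after removing each experiment's mean, among 11514 genes with a mean log2 CPM above 1. These libraries share their groups and times, so r is a description. Closest to Nfatc4 were Mus81 (0.977), Coasy (0.976), Ppox (0.975), Taz (0.969) and Gstm3 (0.965). Among the closest to Rcan1 were Kdm3b (0.952), S100pbp (0.952), Fuz (0.948) and Myh10 (0.947). Nfatc4 and Rcan1 themselves had r = 0.422, and of the other members Ppp3ca (0.728), Nfatc2 (0.666) and Ppp3cb (0.663) were nearest to Nfatc4. They stood only at ranks 1038, 1462 and 1488, so many other genes followed Nfatc4 more closely.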

How the data were processed

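PolyA+ RNA of 12 libraries (4 groups, 3 experiments) was sequenced as stranded 100-bp read pairs. The authors deposited estimated counts per gene, obtained by pseudo-alignment to GENCODE release M24 transcripts in Kallisto 0.46.1. Their model held the RNA processing day, for which the experiment number stood in here because the labels do not carry it. The strand setting and how transcripts were summed to genes were not given in the sources used. Libraries of 1 experiment deviated together: over genes, deviations from the group means correlated at 0.281 to 0.747 in the 18 pairs sharing a number and at −0.628 to 0.231 in the 36 other pairs.

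Values were rounded to integers, and rows whose identifier had no symbol (0.175% of counts) were kept. Symbols, lengths and positions came from GENCODE M21 (GRCm38), and 42156 of 42450 identifiers matched. Genes were filtered with filterByExpr (minimum count 10, minimum total 15) and fitted with edgeR 4.0.16 in R 4.3.3 (TMM, quasi-likelihood test, all 12 libraries, experiment as block), with Benjamini-Hochberg adjustment over all 19410 genes and a threshold of 0.05. DESeq2 1.42.0 and limma-voom (limma 3.58.1) were run as alternatives. The study describes independent experiments of 1 cell line. With the experiment as block, p-values measure how far differences between groups vary from experiment to experiment. The spread of levels between experiments does not enter them. Depth of 73933196 to 153343831 counts limits the precision of members with few counts, and a floor of 3 counts equals 0.0185 to 0.0409 CPM per library.

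Named were all 10 members, Srrm2, up to 3 genes per pathway list and comparison with the lowest unadjusted p plus the extremes of each list, and the 5 genes most like Nfatc4 and Rcan1. Some genes that this rule names are not reported here. The members and lists were chosen with earlier results of these data known.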

Additional observations from a re-analysis of the deposited data

How the results depend on the processing

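Of the member values printed in the text, 365 of 375 under settings that leave out no library kept their direction and side of the threshold and 7 newly passed it, all Nfatc4. Rcan1 between the times in Gl2-KD turned to −0.00 in DESeq2, −0.00 with RLE factors and −0.02 with library totals only. With libraries or experiments left out, printed values whose sign turned ran, at 24 h, from −1.39 to 0.22 for Nfatc1, −0.20 to 0.07 for Nfat5, −0.18 to 0.08 for Ppp3ca, −0.13 to 0.05 for Ppp3cb, −0.25 to 0.62 for Ppp3cc and −0.29 to 0.01 for Rcan1. At 72 h they ran from −1.74 to 0.25 for Nfatc1, −0.00 to 0.21 for Nfat5, −0.21 to 0.00 for Ppp3cb and −0.21 to 0.01 for Ppp3r1, and for Rcan1 between the times in Gl2-KD from −0.03 to 0.05. Of the changes between the times that are plotted but not printed, Nfatc1 ran from −0.53 to 0.81 in Gl2-KD and −1.05 to 1.26 in Srrm2-KD. Ppp3cc ran from −0.16 to 1.06 in Gl2-KD, and Nfatc3 from −0.13 to 0.06 in Gl2-KD and −0.12 to 0.04 in Srrm2-KD. Nfat5 in Srrm2-KD ran from −0.23 without experiment 1 to 0.04 with no replicate block, a setting that leaves out no library. These members lay near 0 or had few counts, and the cause was not tested.

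Counts of genes passing over the whole table moved more. In the order of 24 h, 72 h, both times, the difference between times, time in Gl2-KD and time in Srrm2-KD they were 0, 0, 13, 0, 282 and 107 as tested in the text, and 25, 542, 733, 2, 1338 and 1061 in DESeq2. In limma-voom 2, 4, 92, 482 and 259 passed in all but the difference between times. With legacy=FALSE 1, 5, 79, 624 and 279 passed in the same comparisons, and with a minimum of 10 counts required in each library 1, 1, 93, 476 and 176. With no filter 1, 42, 123, 1, 420 and 212 passed. With robust=TRUE 1 passed at 24 h and 47 over both times, and with RLE factors 25 passed over both times. With libraries or experiments left out the counts ran over 0 to 10, 0 to 55, 0 to 288, 0 to 2, 0 to 387 and 0 to 135. The number of members passing, 0 in the text, became 1 (Nfatc4) at 72 h in DESeq2, with the block for each experiment and time and with 72 h alone, over both times in DESeq2, with no filter and with that block, and between the times in Gl2-KD in DESeq2. With libraries left out it ran from 0 to 1 in these 3 comparisons.

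With no replicate block 0 genes passed over both times, and 0 in either comparison between the times. With the replicate block set for each experiment and time together 724 passed at 72 h and 1124 over both times, and with the 72 h libraries alone 323 passed. Orai3 in Gl2-KD had an edgeR adjusted p = 1.00 with no replicate block. The labels give no processing day, gene values pool isoforms and starts, and members under about 1 CPM rest on few counts per library, so that at 72 h the standard errors were 0.93 for Nfatc1 and 0.49 for Ppp3cc on the log2 scale.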
